A study of Drosophila melanogaster with 8 samples.

Results

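The genes of the mitochondrial respiratory chain and of the ATP synthase were followed in 3 Drosophila melanogaster cell lines, RasV12, L2 and CL8. A gene was a member when its symbol in the platform's annotation began with ND-, Sdh, UQCR-, COX or ATPsyn, or was ox or Cyt-c1. The rule found 69 genes, measured by 72 probe sets, among 10844 genes and 12443 probe sets that carry 1 gene symbol. Where several probe sets carried 1 symbol, the one with the highest mean over the 8 arrays stood for the gene. The members comprised 51 main subunits (26 of complex I, 3 of complex II, 5 of complex III, 7 of complex IV and 10 of complex V), the assembly factor Sdhaf3, and 17 paralogs of subunit genes whose symbols end in L, L1 or L2. The subunits RFeSP, blw, sun, cype and levy, whose symbols fall outside the rule, are described at the end. Further subunits of these complexes, such as SdhA, were not analysed here.

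The respiratory chain passes electrons from NADH through complex I, and from succinate through complex II, to ubiquinone, then through complex III to cytochrome c and through complex IV to oxygen. Complexes I, III and IV move protons out of the matrix while they do so, and the ATP synthase, complex V, lets the protons back and makes ATP. All members are encoded in the nucleus. In Drosophila many nuclear genes of these complexes have a second copy that is expressed mainly in the testis, and several of the L paralogs belong to that class.

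Total RNA was hybridised to 3 DrosGenome1 arrays of RasV12, a line derived from embryos expressing oncogenic Ras and profiled at passage 12, to 1 array of L2 and to 4 arrays of CL8. Cultures were at 70% confluence, and per the series' design text each array had a T-flask of its own. The RasV12 arrays represent 1 line, the labels give neither a tissue of origin nor a passage for L2 and CL8, and the Ras transgene itself was not analysed here. The spread between arrays therefore describes flasks of 1 line, and L2, with 1 array, was assumed to vary like the other lines in every test. An array averages over the cells of a flask, so fewer cells with a transcript and less transcript per cell cannot be told apart.

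Values are log2 expression values as deposited, so that a difference of 1 is a 2-fold difference. Background was judged from 23 control probe sets for sequences absent from the fly, of which the brightest reached 3.24 to 3.47 on RasV12 arrays, 4.04 on the L2 array and 2.98 to 3.41 on CL8 arrays. Differences were tested with limma over 13966 probe sets with Benjamini-Hochberg adjustment, and a gene was called at an adjusted p below 0.05. The lines differed in their whole distribution of values, and the typical deposited value carries 14 decimals for RasV12 but 9 for L2 and CL8, so that a separate processing run and the line cannot be told apart. Every comparison was therefore repeated after quantile normalization, here termed rescaled, and after subtraction of each array's median. Rescaling alone moved the median difference over all probe sets by 0.13 in RasV12 against CL8, by -0.26 in L2 against CL8 and by 0.38 in RasV12 against L2. Array medians were 4.16 to 4.39 in RasV12, 4.99 in L2 and 4.13 to 4.41 in CL8, close to the controls, which limits what subtraction of the median can balance. The muscle, hemocyte and wing disc marker lists also differed between the lines. In RasV12 against CL8, where 11.3% of all probe sets were called higher and 38.6% lower, 4 of 8 muscle markers were higher, 4 of 11 hemocyte markers were higher and 6 lower, and 1 of 8 wing disc markers was higher and 4 lower. In L2 against CL8, where 38.3% were called higher and 23.6% lower, 7 of 8 muscle markers were higher, 4 of 11 hemocyte markers were higher and 3 lower, and 3 of 8 wing disc markers were higher and 2 lower. When rescaled, 2819 of all 13966 probe sets were higher and 2426 lower in L2 than in CL8. Beside these, 3 muscle markers were higher and 0 lower. In the same scaling 2 hemocyte markers were higher and 3 lower, and 2 wing disc markers were higher and 2 lower. The summed log2 value of the muscle list was 49.14 to 49.96 in RasV12, 43.4 in L2 and 28.0 to 30.9 in CL8, that of the hemocyte list 59.7 to 62.1 in RasV12, 83.6 in L2 and 77.2 to 80.2 in CL8, and that of the wing disc list 34.1 to 37.3 in RasV12, 48.2 in L2 and 43.4 to 44.3 in CL8. On each array 5 or 6 of 8 muscle markers, all 11 hemocyte markers and 5 or 6 of 8 wing disc markers exceeded the controls. The part of these markers in the differences of the respiratory chain genes was not tested.

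Of the 69 members, 56 lay above the controls in each of the 3 lines and 13 lay within them. The 56 comprised 49 main subunits, Sdhaf3 and 6 L paralogs. Main subunits were among the bright probe sets of these arrays. The median over the 49 main subunits was 10.74, 10.84 and 10.80 on the RasV12 arrays, 11.53 on the L2 array, and 11.95, 12.04, 12.17 and 12.04 on the CL8 arrays. All RasV12 arrays lay below the L2 array, and the L2 array lay below all CL8 arrays. Within CL8, arrays 3 and 4 minus arrays 1 and 2 gave a median of 0.03 over these subunits (-0.43 to 0.44). The 2 main subunits within the controls were ND-B8, with 1.88 to 2.44 over all arrays, and COX7C, with 2.33 to 3.17, and no level can be given for either.

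**Figure D1:**
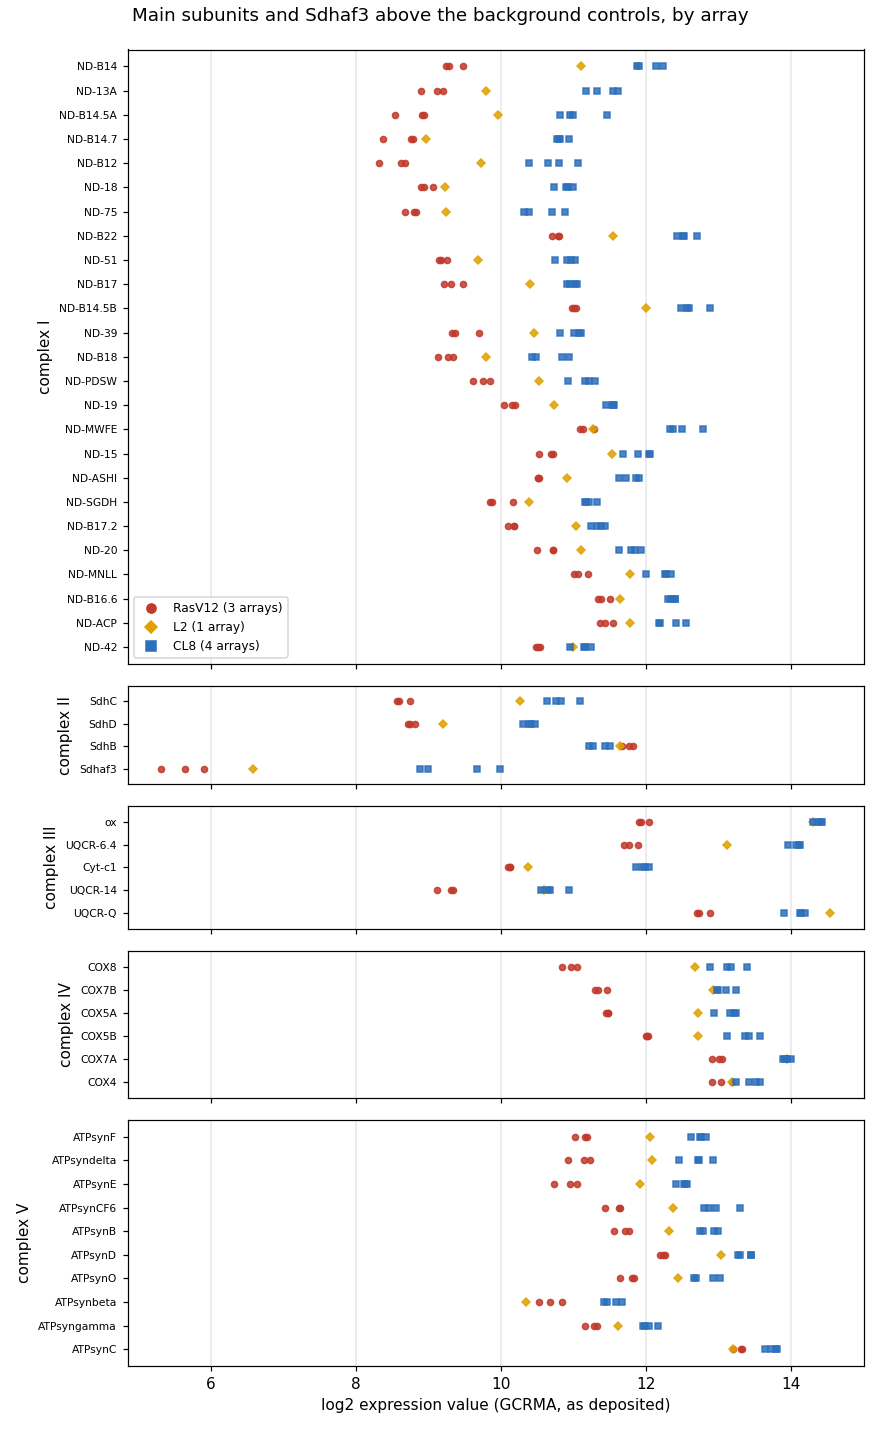
Log2 expression value (horizontal axis, as deposited) of the 49 main subunits above the controls and of Sdhaf3, 1 row per gene, grouped by complex and ordered by the difference between RasV12 and CL8. Each point is 1 array (3 of RasV12, 1 of L2, 4 of CL8), and in every row but that of SdhB all RasV12 points lie left of all CL8 points.

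In RasV12 the main subunits of all 5 complexes were lower than in CL8. Of the 49 above the controls, 48 were called lower and 1, SdhB, was called higher (limma, Benjamini-Hochberg). The 48 genes were also those whose 3 RasV12 values all lay below the 4 CL8 values. Over all probe sets tested, 38.6% were called lower and 11.3% higher, and among the 8279 probe sets above the controls in all lines 54.8% were called lower. Every RasV12 array lay below every CL8 array for 55% of those 8279. The median difference of the main subunits was -1.42 as deposited and -0.69 rescaled, against -0.58 and -0.01 over the 8279 probe sets. Over all 69 members 53 were called lower and 3 higher as deposited, 47 lower and 12 higher when rescaled, and 52 lower and 12 higher after subtraction of medians. Of all 13966 probe sets, 4155 were lower and 4953 higher when rescaled, and 5424 lower and 4861 higher after subtraction of medians. With all 3 scalings required, 46 members were lower, 41 of them main subunits, beside 25.4% of all probe sets. The 7 main subunits that lost the lower call in at least 1 scaling were ND-ACP, ND-42, COX4, ATPsynO, ATPsynbeta, ATPsyngamma and ATPsynC. Of these, COX4 was called higher in RasV12 when rescaled.

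**Figure D2:**
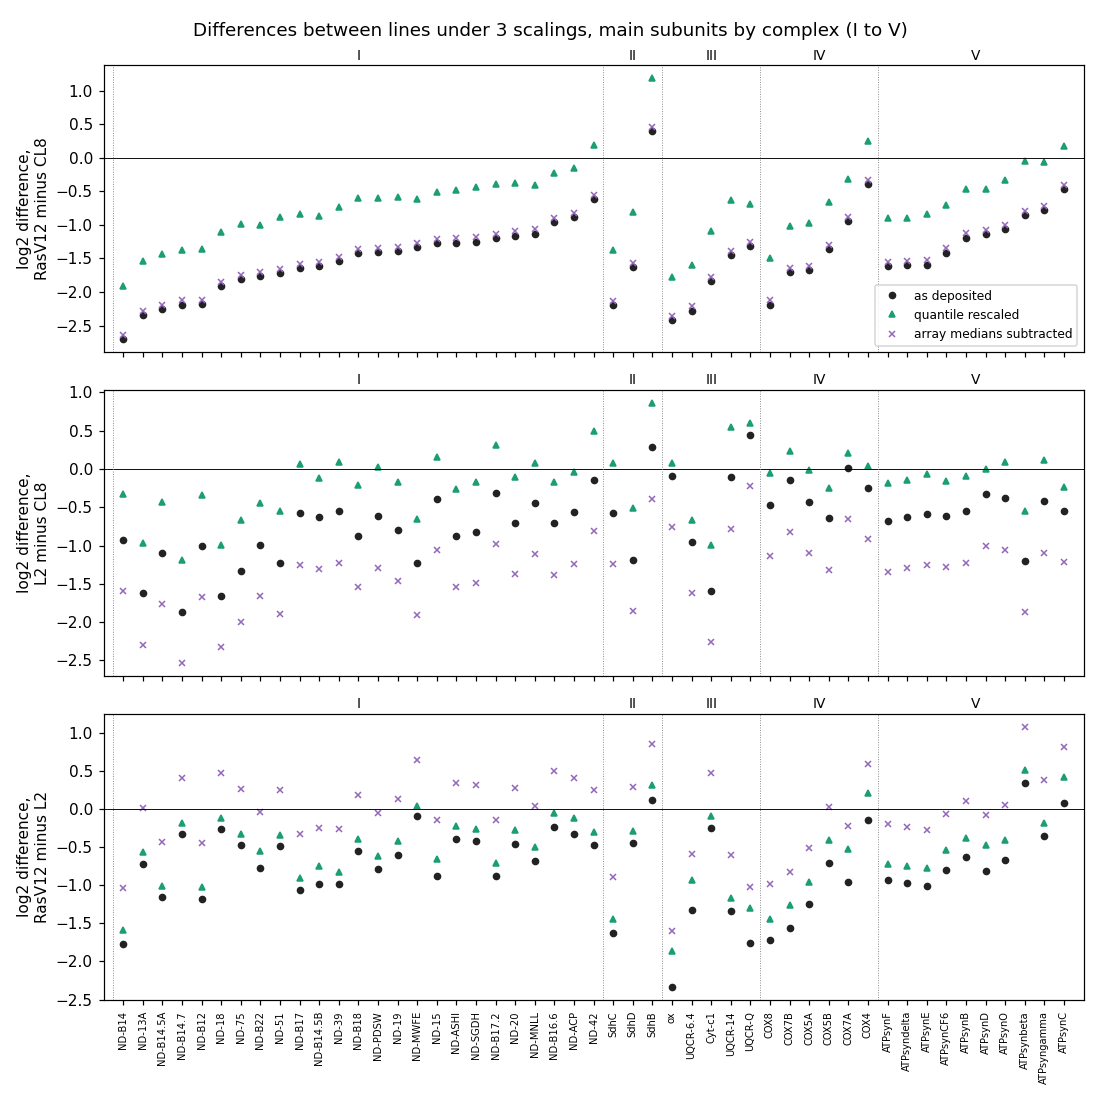
Log2 difference (vertical axes) of each main subunit above the controls between RasV12 and CL8 (top), L2 and CL8 (middle) and RasV12 and L2 (bottom), with genes along the horizontal axis by complex. The marker shape gives the scaling, and between RasV12 and CL8 the median over the genes is -1.42 as deposited and -0.69 rescaled.

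Complex I oxidises NADH and is the largest complex of the chain, with a core that carries the redox centres and a shell of accessory subunits. All 25 main subunits above the controls were called lower in RasV12 than in CL8, 23 of them in all 3 scalings, with a median difference of -1.42 (-0.62 rescaled). The core was represented by 3 members. ND-51, which binds NADH and the flavin, had values of 9.26, 9.18 and 9.15 in RasV12, 9.68 in L2, and 11.02, 10.90, 10.96 and 10.75 in CL8. ND-75, the largest iron-sulfur subunit, had 8.83, 8.80 and 8.67 in RasV12, 9.24 in L2, and 10.31, 10.39, 10.70 and 10.88 in CL8. ND-20, which carries the last iron-sulfur cluster before ubiquinone, had 10.50, 10.71 and 10.72 in RasV12, 11.10 in L2, and 11.63, 11.79, 11.93 and 11.85 in CL8. In all 3 core genes RasV12 was lowest, L2 was between the other lines, and no arrays of different lines overlapped. The differences between RasV12 and CL8 were -1.71 for ND-51, -1.81 for ND-75 and -1.16 for ND-20 (-0.89, -0.99 and -0.37 rescaled), each called in every scaling.

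The widest differences of complex I were in accessory subunits. ND-B14, an accessory subunit with an LYR motif in its mammalian counterpart, had 9.29, 9.24 and 9.48 in RasV12, 11.11 in L2, and 11.90, 11.87, 12.23 and 12.14 in CL8. It was 6.49-fold lower in RasV12 than in CL8 (log2 difference -2.70, SE 0.118, limma adjusted p = 8.6e-07), and -1.92 rescaled. ND-13A, whose mammalian counterpart lies near the NADH-oxidising end, had 8.90, 9.12 and 9.20 in RasV12, 9.79 in L2, and 11.32, 11.55, 11.61 and 11.18 in CL8, a difference of -2.34 (-1.54 rescaled) between RasV12 and CL8. These genes differ in where the L2 value falls, near CL8 for ND-B14 and near RasV12 for ND-13A. ND-B14.5A, another accessory subunit, had 8.54, 8.94 and 8.92 in RasV12, 9.96 in L2, and 10.95, 11.46, 10.82 and 11.00 in CL8 (difference -2.26, and -1.43 rescaled). ND-B14.7, an accessory subunit of the membrane arm, had 8.37, 8.76 and 8.79 in RasV12, 8.97 in L2, and 10.78, 10.94, 10.80 and 10.81 in CL8. For ND-B14.7, at a difference of -2.19 between RasV12 and CL8 (-1.37 rescaled), the L2 value stood just above the highest RasV12 value and more than 1 unit below the lowest CL8 value. The differences of the other 18 subunits ranged from -2.18 for ND-B12 to -0.62 for ND-42.

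Among the complex I main subunits above the controls, ND-42 and ND-ACP had the smallest differences. ND-42, an accessory subunit whose mammalian counterpart resembles nucleoside kinases, had 10.48, 10.51 and 10.53 in RasV12, 10.99 in L2, and 10.95, 11.24, 11.15 and 11.15 in CL8. Its difference of -0.62 was called (limma adjusted p = 0.00048) but stood at 0.19 when rescaled, so its direction depends on the scaling. ND-ACP, the acyl carrier protein that also serves mitochondrial fatty acid synthesis, had 11.36, 11.44 and 11.54 in RasV12, 11.77 in L2, and 12.20, 12.18, 12.41 and 12.55 in CL8. Its difference was -0.89, and -0.16 rescaled, where the call was lost.

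Complex II, succinate dehydrogenase, split between its subunits. SdhC and SdhD anchor the enzyme in the inner membrane, SdhB carries its iron-sulfur clusters, and Sdhaf3 is an assembly factor that acts in the maturation of SdhB. SdhC had 8.57, 8.59 and 8.75 in RasV12, 10.26 in L2, and 10.83, 11.09, 10.63 and 10.76 in CL8. SdhD had 8.81, 8.75 and 8.73 in RasV12, 9.21 in L2, and 10.41, 10.39, 10.47 and 10.30 in CL8. SdhB had 11.76, 11.67 and 11.82 in RasV12, 11.64 in L2, and 11.27, 11.21, 11.44 and 11.50 in CL8. Both membrane anchors were lowest in RasV12 on every array, whereas every RasV12 array lay above every CL8 array for SdhB.

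SdhC was 4.58-fold lower in RasV12 than in CL8 (log2 difference -2.19, SE 0.119, limma adjusted p = 2.3e-06) and SdhD 3.09-fold lower (-1.63, SE 0.0752, limma adjusted p = 1.1e-06). SdhB was 1.32-fold higher (0.40, SE 0.097, limma adjusted p = 0.009), and rescaling widened this to 1.18. All 3 calls held in every scaling, and SdhB was the only main subunit called higher in RasV12 than in CL8 in all of them. Within an array the log2 difference between 2 probe sets does not depend on a shift of the whole array, although it does not compare the amounts of the 2 transcripts. The value of SdhB minus that of SdhC was 3.20, 3.08 and 3.07 in RasV12, 1.38 in L2, and 0.44, 0.12, 0.80 and 0.74 in CL8. The value of SdhB minus that of SdhD was 2.95, 2.92 and 3.09 in RasV12, 2.43 in L2, and 0.86, 0.82, 0.97 and 1.20 in CL8. On both measures the lines did not overlap, with L2 between RasV12 and CL8.

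Sdhaf3 gave the widest difference of all members between RasV12 and CL8. It had 5.65, 5.90 and 5.32 in RasV12, 6.59 in L2, and 9.67, 9.99, 8.88 and 8.99 in CL8. RasV12 was 13.5-fold lower than CL8 (log2 difference -3.76, SE 0.285, limma adjusted p = 1.3e-05; -3.12 rescaled) and L2 lower than CL8 by a difference of -2.80 (limma adjusted p = 0.0013; -2.34 rescaled). Among the CL8 arrays, numbers 1 and 2 lay above numbers 3 and 4 for this gene, by less than the distance to any array of the other lines. The difference between RasV12 and L2 was -0.96 and was not called (limma adjusted p = 0.091).

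**Figure D3:**
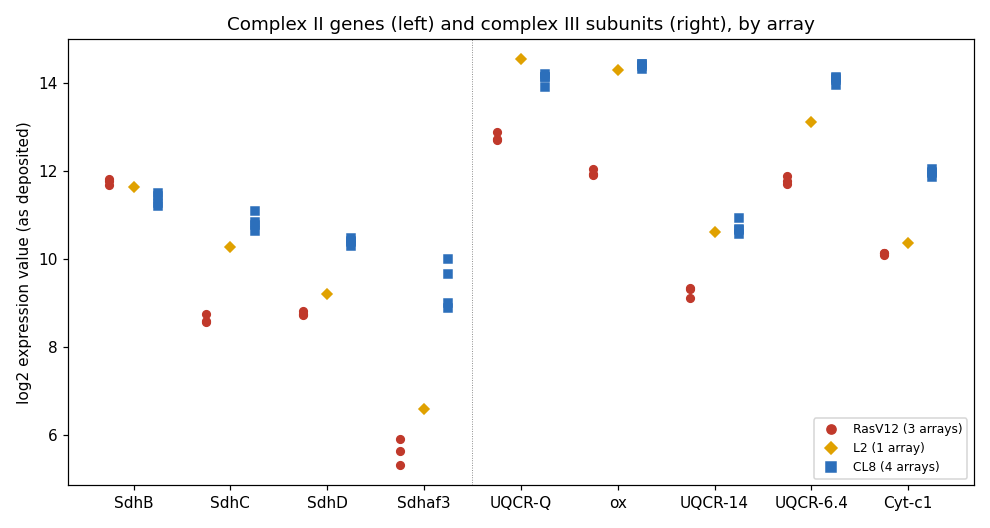
Log2 expression value (vertical axis, as deposited) of the complex II genes above the controls and of the complex III subunits, with 1 point per array. SdhB is the one gene with all 3 RasV12 points above the 4 CL8 points, and UQCR-Q the one with the L2 point above all other arrays.

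Complex III passes electrons from ubiquinol to cytochrome c. All 5 main subunits were called lower in RasV12 than in CL8 in every scaling, and their median difference, -1.84 (-1.09 rescaled), was the widest of the 5 complexes. Cyt-c1, the heme-bearing subunit that hands electrons to cytochrome c, had 10.12, 10.13 and 10.09 in RasV12, 10.37 in L2, and 11.95, 12.04, 11.98 and 11.86 in CL8. The small subunit ox had 11.90, 11.92 and 12.04 in RasV12, 14.29 in L2, and 14.30, 14.42, 14.41 and 14.37 in CL8. These subunits were both lower in RasV12 than in CL8 (-1.84 for Cyt-c1, -2.42 for ox, where RasV12 was 5.37-fold lower with an SE of 0.0763 and a limma adjusted p of 1.7e-07). They differed in L2, which stood near RasV12 for Cyt-c1 and just below the lowest CL8 array for ox.

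UQCR-6.4, a small accessory subunit, had 11.70, 11.77 and 11.88 in RasV12, 13.11 in L2, and 13.95, 14.12, 14.11 and 14.06 in CL8. UQCR-14, the counterpart of a ubiquinone-binding protein in mammals, had 9.12, 9.32 and 9.34 in RasV12, 10.60 in L2, and 10.56, 10.93, 10.68 and 10.65 in CL8. UQCR-Q, a small subunit, had 12.70, 12.73 and 12.88 in RasV12, 14.53 in L2, and 13.89, 14.12, 14.19 and 14.13 in CL8. RasV12 was lowest in all 3, while L2 lay between the lines for UQCR-6.4, among the CL8 arrays for UQCR-14 and above them for UQCR-Q. Their differences between RasV12 and CL8 were -2.28 for UQCR-6.4, -1.45 for UQCR-14 and -1.31 for UQCR-Q (-1.59, -0.63 and -0.69 rescaled).

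The subunits of complex III moved apart in L2. The value of ox minus that of Cyt-c1 within an array was 1.77, 1.80 and 1.95 in RasV12, 3.92 in L2, and 2.35, 2.38, 2.44 and 2.51 in CL8. The value of UQCR-Q minus that of Cyt-c1 was 2.58, 2.60 and 2.79 in RasV12, 4.16 in L2, and 1.94, 2.09, 2.21 and 2.27 in CL8. L2 exceeded every other array in both, by more than 1 unit. The limma differences between L2 and CL8 were -1.59 for Cyt-c1 (adjusted p = 3.8e-05), -0.95 for UQCR-6.4 (adjusted p = 0.00066), -0.09 for ox and -0.11 for UQCR-14, the last pair not called, and 0.45 for UQCR-Q (adjusted p = 0.028). The Cyt-c1 and UQCR-6.4 calls held in every scaling, whereas the other 3 depended on the scaling. UQCR-Q stood at 0.61 rescaled and -0.22 after subtraction of medians. UQCR-14 was called higher in L2 when rescaled (0.55, limma adjusted p = 0.034) and lower after subtraction of medians (-0.78), and ox stood at 0.08 rescaled and was called lower after subtraction of medians (-0.76). Neither ox probe set is of the plain type of most members, since their names end in _i_at (the one used) and _r_at (the second). The second probe set had 9.42 to 9.53 in RasV12, 11.22 in L2 and 11.58 to 11.74 in CL8. That probe set differed by -2.20 between RasV12 and CL8 and by -0.44 between L2 and CL8, where it was called lower (limma adjusted p = 0.015; 0.17 rescaled, not called).

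Complex IV, cytochrome c oxidase, reduces oxygen. All 6 main subunits above the controls were called lower in RasV12 than in CL8, with a median of -1.51 (-0.81 rescaled), and 5 held in every scaling. COX8 had 10.84, 10.96 and 11.05 in RasV12, 12.67 in L2, and 13.17, 13.38, 13.12 and 12.88 in CL8. COX7B had 11.30, 11.34 and 11.46 in RasV12, 12.93 in L2, and 12.99, 13.24, 13.09 and 12.97 in CL8. COX5A had 11.47, 11.47 and 11.45 in RasV12, 12.71 in L2, and 12.93, 13.16, 13.24 and 13.21 in CL8. In these 3 small subunits L2 lay close below the CL8 arrays and more than 1 unit above RasV12. The differences between RasV12 and CL8 were -2.19 for COX8 (4.55-fold lower, SE 0.126, limma adjusted p = 3.1e-06), -1.71 for COX7B and -1.67 for COX5A (-1.49, -1.02 and -0.97 rescaled).

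COX5B, a zinc-binding subunit, differed by -1.35 (-0.65 rescaled), with 12.00 to 12.02 in RasV12, 12.72 in L2 and 13.11 to 13.57 in CL8. COX7A had 13.01, 12.91 and 13.05 in RasV12, 13.94 in L2, and 13.94, 13.88, 13.99 and 13.91 in CL8, a difference of -0.94 (-0.32 rescaled). COX4, the largest nuclear-encoded subunit of the complex, had 12.90, 13.03 and 13.18 in RasV12, 13.18 in L2, and 13.51, 13.57, 13.41 and 13.23 in CL8. COX4 thus had the smallest difference among the main subunits above the controls, -0.39 (limma adjusted p = 0.017). Its highest RasV12 value was just under its lowest CL8 value. When rescaled the difference turned to 0.25, and COX4 was called higher in RasV12 (limma adjusted p = 0.043). The lower call was also lost after subtraction of medians (-0.33), without RasV12 replicate 1 (-0.33), without RasV12 replicate 2 (-0.39) and without CL8 arrays 1 and 2 (-0.29). The value of COX4 minus that of COX8 within an array was 2.06, 2.08 and 2.12 in RasV12, 0.51 in L2, and 0.34, 0.19, 0.29 and 0.36 in CL8. RasV12 stood more than 1 unit above both other lines on this measure.

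Complex V makes ATP in a catalytic head, joined by central and peripheral stalks to a rotor in the membrane. All 10 main subunits were called lower in RasV12 than in CL8 as deposited, with a median of -1.16 (-0.47 rescaled), and 6 held in every scaling. In the head and central stalk, ATPsynbeta, the catalytic subunit, had 10.52, 10.84 and 10.68 in RasV12, 10.34 in L2, and 11.59, 11.67, 11.47 and 11.42 in CL8. ATPsyngamma, the central shaft, had 11.29, 11.16 and 11.33 in RasV12, 11.61 in L2, and 11.99, 11.95, 12.17 and 12.04 in CL8. ATPsyndelta, at the foot of the shaft, had 10.92, 11.23 and 11.14 in RasV12, 12.08 in L2, and 12.45, 12.73, 12.72 and 12.92 in CL8. L2 was below all other arrays for ATPsynbeta and between the lines for the other 2. The differences between RasV12 and CL8 were -0.86 for ATPsynbeta, -0.78 for ATPsyngamma and -1.60 for ATPsyndelta, and when rescaled they were -0.05, -0.07 and -0.89.

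The peripheral stalk holds the head still against the rotor. Its members ATPsynCF6, ATPsynB, ATPsynD and ATPsynO differed by -1.41, -1.19, -1.14 and -1.06 (-0.70, -0.47, -0.47 and -0.33 rescaled). For each of these 4 the L2 array lay between the RasV12 and CL8 arrays. In the membrane part, ATPsynF had 11.02, 11.16 and 11.19 in RasV12, 12.06 in L2, and 12.82, 12.74, 12.61 and 12.76 in CL8. ATPsynE, which helps join synthase dimers, had 10.74, 10.95 and 11.05 in RasV12, 11.92 in L2, and 12.52, 12.56, 12.41 and 12.53 in CL8. ATPsynC, the proton-carrying ring subunit, had 13.32, 13.19 and 13.30 in RasV12, 13.19 in L2, and 13.79, 13.63, 13.80 and 13.72 in CL8. ATPsynF and ATPsynE were lower in RasV12 by differences of -1.61 (3.06-fold, SE 0.0849, limma adjusted p = 2e-06) and -1.59 (-0.90 and -0.84 rescaled). ATPsynC differed by -0.46 (limma adjusted p = 0.0014) and by 0.18 when rescaled. Its second probe set, dimmer at 4.78 to 5.13 in RasV12, 5.68 in L2 and 5.31 to 5.92 in CL8, differed by -0.62. The value of ATPsynC minus that of ATPsynF within an array was 2.30, 2.04 and 2.11 in RasV12, 1.13 in L2, and 0.97, 0.89, 1.19 and 0.97 in CL8, so RasV12 lay above both other lines and L2 among the CL8 arrays.

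As deposited, L2 lay between the other lines for most members. Of the 56 members above the controls, the L2 value was between the RasV12 and CL8 arrays without overlap for 44, above both for 5, below both for 2 and within the range of 1 line for 5. Over the 8279 probe sets above the controls in all lines it was between for 28.8%. A gene can count as between only where the RasV12 and CL8 arrays do not overlap. Every RasV12 array lay below every CL8 array for 55% of the 8279, but for 48 of the 49 main subunits. The gap to 28.8% therefore partly restates the separation of RasV12 from CL8. This order depends on the scaling, since the 49 main subunits gave 10 lower and 5 higher in L2 than in CL8 when rescaled, with a median difference of -0.12, and 9 lower and 8 higher in RasV12 than in L2 after subtraction of medians. The 5 genes above both were UQCR-Q, COX6AL2, COX4L, COX7AL and ATPsynGL, and the 2 below both were ATPsynbeta and ATPsynC. The 5 within a line were ND-MWFE, which shared the RasV12 range, and ND-42, UQCR-14, COX7A and ND-51L2, which shared the CL8 range. For COX4, counted as between, the L2 value and the highest RasV12 value both round to 13.18. For ATPsynC, counted as below both, the L2 value and the lowest RasV12 value both round to 13.19, and its second probe set placed L2 within the CL8 range.

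In L2 against CL8, 39 members were called lower and 13 higher as deposited, beside 23.6% lower and 38.3% higher over all probe sets. The same counts were 14 lower and 11 higher when rescaled, and 61 lower and 2 higher after subtraction of medians. Over all 13966 probe sets, 2426 were lower and 2819 higher when rescaled, and 8609 lower and 1272 higher after subtraction of medians. In all 3 scalings 11 members were lower and 2 higher, beside 11.7% and 8.95% of all probe sets. All of these were among the 56 members above the controls. Of the 8279 probe sets above the controls in all lines, 1494 were lower and 1009 higher in all 3 scalings. The 11 lower members are thus near the share of such probe sets. The 11 were 6 complex I subunits (ND-13A, ND-B14.7, ND-18, ND-B22, ND-51 and ND-MWFE), SdhD, Sdhaf3, UQCR-6.4, Cyt-c1 and ATPsynbeta. Among the complexes the median difference of main subunits above the controls was -0.82 for I, -0.57 for II, -0.11 for III, -0.34 for IV and -0.57 for V as deposited, and -0.17, 0.08, 0.08, 0.02 and -0.12 rescaled. ND-B14.7 had the widest difference of the main subunits, -1.86 (limma adjusted p = 0.00013; -1.18 rescaled). ND-18, an accessory subunit needed for a stable complex I in mammals, had 9.07, 8.90 and 8.94 in RasV12, 9.23 in L2, and 10.92, 11.00, 10.89 and 10.73 in CL8, a difference of L2 from CL8 of -1.66 (-0.99 rescaled). ATPsynbeta was the only ATP synthase gene among the 11, with a difference of -1.20 (limma adjusted p = 0.00066; -0.55 rescaled).

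In RasV12 against L2, 48 members were called lower and 0 higher as deposited, and 0 were higher at an unadjusted limma p below 0.05. Over all probe sets 44.1% were called lower and 9.57% higher. When rescaled the members split into 32 lower and 7 higher, and after subtraction of medians into 11 lower and 18 higher, so the direction of the group as a whole depends on the scaling here. Over all 13966 probe sets, 3625 were lower and 3077 higher when rescaled, and 1786 lower and 6870 higher after subtraction of medians. The 11 members that were lower in RasV12 than in L2 in all 3 scalings, beside 12.8% of all probe sets, were ND-B14, SdhC, the complex III main subunits ox, UQCR-6.4, UQCR-14 and UQCR-Q, COX8, COX7B, COX5A, COX4L and COX7AL. All 11 were among the 56 members above the controls. Of the 8279 probe sets above the controls in all lines, 1349 were lower in all 3 scalings, a share not far below that of the members. The widest of the main subunits was ox, at -2.34 (limma adjusted p = 6e-06; -1.86 rescaled). This rank rests on the probe set used for ox, since its second probe set gave -1.76 (-1.57 rescaled), against -1.77 for ND-B14 and -1.76 for UQCR-Q. The comparisons of RasV12 and of L2 with CL8 share the CL8 arrays, and those with L2 share its 1 array, so their differences are not independent of each other.

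Most L paralogs gave no signal above background. Of the 17, 11 were within the controls in every line, namely ND-51L1, ND-20L, ND-24L, ND-B14.5AL, SdhBL, SdhAL, SdhCL, UQCR-14L, COX5BL, ATPsynCF6L and ATPsynepsilonL. Their values ran from 1.86 to 3.81 over all arrays. No level can be given for these 11, and a call among them describes differences within the background. ATPsynepsilonL, for one, was called higher in RasV12 than in CL8 at 2.49 to 2.61 in RasV12, 2.45 in L2 and 2.11 to 2.29 in CL8. Over all 17, 4 were called lower and 2 higher in RasV12 than in CL8, 5 and 9 when rescaled, and 4 and 10 after subtraction of medians. Of all 13966 probe sets 38.6% were called lower and 11.3% higher as deposited. When rescaled 4155 of them were lower and 4953 higher, and after subtraction of medians 5424 and 4861. The main genes ND-20, ND-51, ND-B14.5A, SdhB, SdhC, UQCR-14, COX4, COX5B, COX7A, ATPsynbeta and ATPsynCF6 were all far above the controls in every line.

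**Figure D4:**
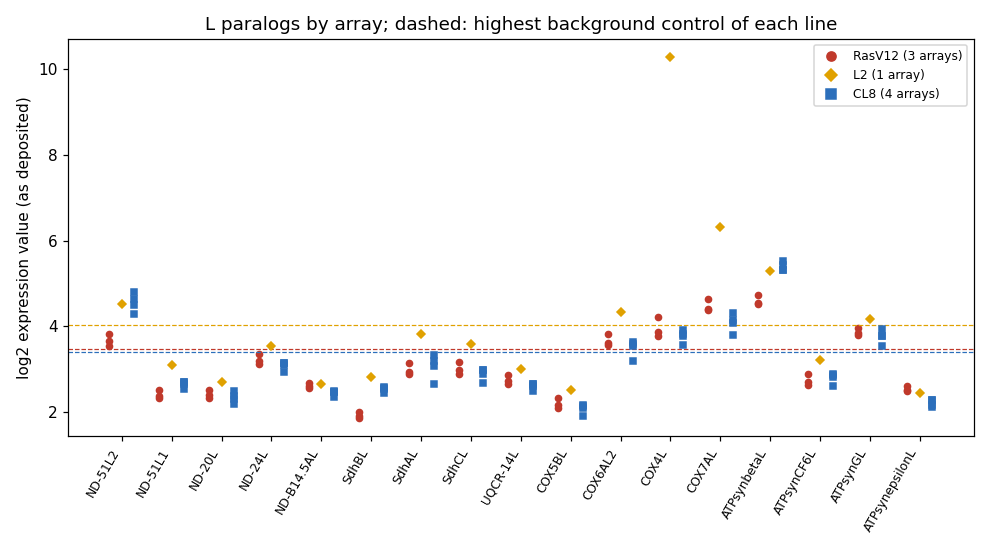
Log2 expression value (vertical axis, as deposited) of the 17 L paralogs, with 1 point per array, and the highest control value of each line as a dashed line in its colour. COX4L stands at 10.29 and COX7AL at 6.31 in L2, while most paralogs lie below the dashed lines.

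COX4L, a paralog of COX4, was bright in L2 alone. It had 4.20, 3.78 and 3.87 in RasV12, 10.29 in L2, and 3.56, 3.81, 3.91 and 3.78 in CL8. The RasV12 and CL8 arrays overlapped and lay less than 1 unit above their controls, whereas L2 lay more than 6 units above its own. The difference of L2 from CL8 was 6.52, a 91.8-fold difference (SE 0.188, limma adjusted p = 5.1e-07), and 6.71 rescaled. RasV12 differed from L2 by -6.33 (SE 0.194, limma adjusted p = 5.8e-07), and RasV12 and CL8 differed by 0.19, which was not called as deposited (adjusted p = 0.27) and was called in the other 2 scalings (0.23 rescaled, 0.25 after subtraction of medians). COX4, its main gene, differed by -0.25 between L2 and CL8, which was not called (limma adjusted p = 0.2). COX4 stood at 0.04 when rescaled and at -0.92 after subtraction of medians. In the latter scaling all 6 complex IV main subunits above the controls, COX4 among them, were called lower in L2 than in CL8.

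COX7AL, a paralog of COX7A, was also highest in L2. It had 4.64, 4.38 and 4.41 in RasV12, 6.31 in L2, and 3.79, 4.30, 4.08 and 4.14 in CL8. L2 exceeded CL8 by 2.24 (4.71-fold, SE 0.195, limma adjusted p = 1e-04), and by 2.10 rescaled. Its main gene COX7A differed by 0.01 between L2 and CL8 (0.21 rescaled, -0.66 after subtraction of medians). For COX7AL, RasV12 exceeded CL8 by 0.40 (limma adjusted p = 0.036), and this call was lost in 8 alternatives, among them each fit that left out 1 RasV12 array. These were the only 2 members higher in L2 than in CL8 in all 3 scalings, and both belong to complex IV.

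The other paralogs above the controls were dim. COX6AL2 had 3.55 to 3.82 in RasV12, 4.33 in L2 and 3.20 to 3.63 in CL8, and ATPsynGL had 3.79 to 3.97 in RasV12, 4.16 in L2 and 3.53 to 3.95 in CL8. ND-51L2 had 3.82, 3.65 and 3.54 in RasV12, 4.53 in L2, and 4.29, 4.49, 4.64 and 4.79 in CL8. ATPsynbetaL had 4.73, 4.51 and 4.53 in RasV12, 5.28 in L2, and 5.42, 5.30, 5.53 and 5.32 in CL8. For both ND-51L2 and ATPsynbetaL every RasV12 array lay below every CL8 array, with differences of -0.88 and -0.80 (limma adjusted p = 0.00068 and 0.00016). Both calls held in every scaling, and the L2 value was not called different from CL8 as deposited for either (limma adjusted p = 0.92 and 0.49). When rescaled, both genes were called lower in L2 than in CL8, at -0.67 for ND-51L2 and -0.60 for ATPsynbetaL (limma adjusted p = 0.0023 and 0.0037). After subtraction of medians they stood at -0.69 and -0.78.

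Markers of the testis and male germ line were examined beside these paralogs. Of 31 listed genes 27 were measured, and 14 to 16 of them were above the controls on the RasV12 arrays, 15 on the L2 array and 15 to 18 on the CL8 arrays. Their summed log2 value was 93.9 to 99.4 in RasV12, 114.5 in L2 and 94.6 to 100.4 in CL8. This sum includes markers within the controls, and the L2 array had the highest median and the highest control value of all arrays. The list's median difference between L2 and CL8 was 0.55 (0.13 rescaled), against 0.27 (0.01 rescaled) over all probe sets. In L2 against CL8 18 markers were called higher and 1 lower, and 8 and 1 in all 3 scalings, beside 38.3% and 8.95% of all probe sets higher. When rescaled 10 markers were higher and 3 lower, beside 2819 higher and 2426 lower of all 13966 probe sets. The markers bgcn, dj, vas, zpg and sa and the Mst genes were within the controls in L2. So was bol, at 3.52 in L2 against a mean of 4.90 in CL8. Other markers exceeded the L2 controls, among them tomb at 5.05, aly at 4.21 and topi at 4.18. Their CL8 means were 3.78, 3.21 and 3.37, and topi was not called different (limma adjusted p = 0.11). The aly and topi values lay close to the highest L2 control, 4.04. The part of these markers in the COX4L and COX7AL differences was not tested.

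Other genes that serve the same complexes were lower in RasV12 in part. The shares of all probe sets called lower, 38.6% as deposited, 25.4% in all 3 scalings and 54.8% of those above the controls, stand beside the counts of each list. Of 10 measured assembly factors 8 were called lower than in CL8 and 1 higher, and 5 and 1 in all 3 scalings. Surf1, which takes part in complex IV assembly, had 2.65, 2.70 and 2.86 in RasV12, 5.03 in L2, and 7.13, 7.32, 6.76 and 6.81 in CL8. RasV12 was within the controls and at least 12.7-fold lower than CL8 (limma adjusted p = 3.1e-07), computed against the highest control of each RasV12 array. Scox, a copper chaperone of complex IV, differed by -1.63 (-0.80 rescaled). The factor called higher was Ttc19, which acts on complex III, with 8.94, 8.99 and 8.90 in RasV12, 8.18 in L2, and 8.51, 8.33, 8.20 and 8.13 in CL8 (difference 0.65, limma adjusted p = 0.00097; 1.43 rescaled).

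Among 14 measured genes of mitochondrial DNA maintenance, transcription and nuclear regulation, 13 were called lower in RasV12 than in CL8, 8 of them in all 3 scalings. TFAM, which packages mitochondrial DNA, had 8.61, 8.91 and 9.01 in RasV12, 9.38 in L2, and 11.33, 11.43, 11.33 and 11.50 in CL8. Its difference of -2.56 from CL8 (5.89-fold lower, SE 0.11, limma adjusted p = 8.1e-07; -1.74 rescaled) was followed in size by that of L2 from CL8, -2.02 (-1.35 rescaled). The transcription termination factor mTTF differed by -2.04 (-1.28 rescaled). Of 12 measured genes of the citrate cycle and pyruvate dehydrogenase, 8 were called lower and 4 were not called, with ScsbetaG at -1.97 and muc at -1.61. When this list was rescaled 4 were lower and 4 higher, and its count as deposited is near the share of probe sets above the controls. Of 11 measured carriers, porins and cytochrome c genes, 5 were called lower and 1 higher, again near the share of all probe sets, with Ucp4A at -1.63 and porin, the channel of the outer membrane, at -1.21, and 3 were lower and 4 higher when rescaled. The median difference was -1.17 for the assembly factors, -1.41 for the mitochondrial DNA list, -0.80 for the citrate cycle list and -0.18 for the carriers (-0.38, -0.77, -0.01 and 0.05 rescaled).

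**Figure D5:**
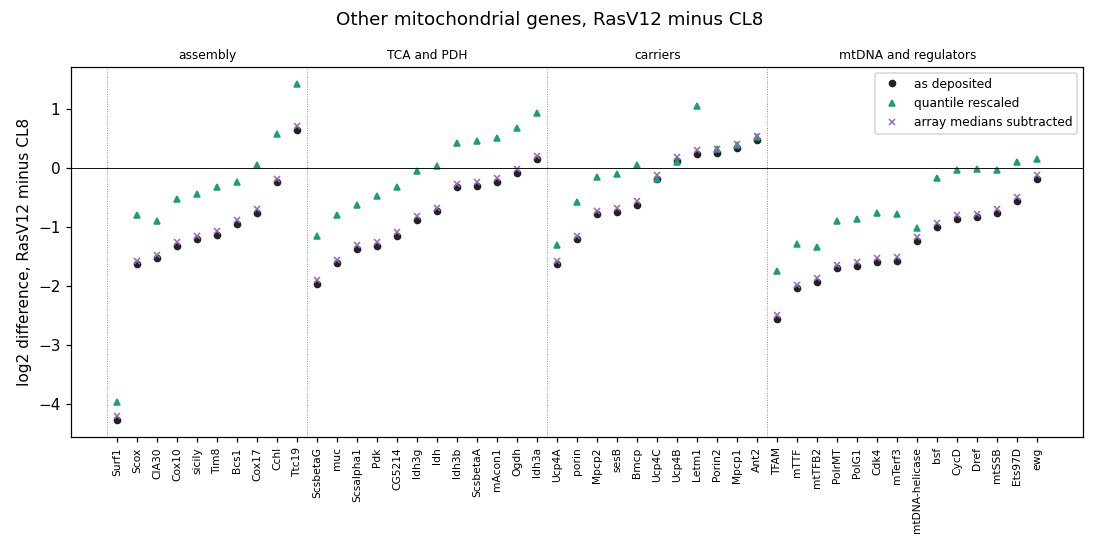
Log2 difference between RasV12 and CL8 (vertical axis) of the measured genes of 4 other mitochondrial lists, with genes along the horizontal axis and the marker shape giving the scaling. Surf1 and TFAM have the widest differences and Ttc19 is the gene called higher among the assembly factors.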

How the data were processed

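RNA of 3 cell lines was measured on 8 Affymetrix DrosGenome1 arrays. The values were deposited by the authors as log2 expression values, computed with GCRMA (background correction by GC content, normalization and probe summary) per the series' design text. Whether 1 run covered all arrays was not stated in the sources at hand. All arrays were used, and groups came from the sample titles.

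Of 14010 probe sets 44 controls were set aside. Gene symbols came from the platform annotation, and 12443 probe sets had 1 symbol, 327 several and 1196 none. Symbols updated through the RefSeq table of assembly Release 6 plus ISO1 MT, used for names only, matched for all 69 members.

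One limma 3.58.1 fit (R 4.3.3, lmFit, contrasts, eBayes) of all 8 arrays gave the 3 comparisons, with Benjamini-Hochberg adjustment over 13966 probe sets, as the design text names limma. Its script was tested on simulated data. The number of arrays limits the precision. A line counted as above the controls where most of its arrays exceeded their highest control. Alternatives were 2 other scalings, a filter on dim probe sets, an intensity trend, arrays left out singly or as CL8 pairs, fits of the compared lines alone, a replicate block, second probe sets and updated symbols. Widening the rule by 6 genes was chosen after seeing the data.

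Members, gene lists and tests were chosen with earlier results of these data known. Genes were named by rule: per complex the 3 with the widest and the 1 with the smallest difference between RasV12 and CL8 and the 1 with the widest between L2 and CL8, every member higher in RasV12, every L paralog and its main gene, and 2 genes per mitochondrial list. Other members described were picked for their role in a complex after their values were seen. Replicate numbers were not taken to pair the arrays. Same-numbered RasV12 and CL8 arrays gave correlations of -0.25, -0.14 and -0.09, and the other combinations -0.07 to 0.19. With 3 arrays per line these correlations depend on each other, so they cannot exclude a pairing. Protein and promoter sequences were not analysed here.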

Additional observations from a re-analysis of the deposited data

Results flagged for a closer look

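Of the 69 members, 0 had a CL8 array standing apart from the other 3 at Dixon's 95% critical value, where chance alone marks about 1 in 20. The RasV12 and L2 groups are too small for this rule. Outside the members, 4 probe sets are paired with 2 gene symbols, at least 1 of which follows the naming rule, and were left out. In 2 of them the L2 array exceeded all 4 CL8 arrays. The brighter of them had 9.24 in L2 and 8.93 to 9.23 in CL8, and the dimmer had 4.65 in L2 and 3.61 to 3.96 in CL8.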

How the results depend on the processing

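With 1 array of L2 and 1 line per group, p-values cover the spread between flasks only, signal near the controls limits the L paralogs, and scaling moved counts most. The number of members called higher in RasV12 than in CL8 was 12 both rescaled and after subtraction of medians, and 1 without CL8 arrays 3 and 4 and with a replicate block, against 3 as reported. In L2 against CL8, 14 were lower rescaled and 61 after subtraction of medians (39 as reported), and 2 were higher after subtraction of medians and 4 with a filter on dim probe sets (13 as reported), the filter leaving fewer members. In RasV12 against L2, 11 were lower after subtraction of medians (48 as reported), and 7 were higher rescaled and 18 after subtraction of medians (0 as reported). Rescaled medians of RasV12 against CL8 were -0.62, -0.80, -1.09, -0.81 and -0.47 for complexes I to V. With 1 array left out, calls in RasV12 against CL8 were 51 to 53 lower and 2 to 3 higher, in L2 against CL8 34 to 39 lower and 11 to 14 higher, and in RasV12 against L2 38 to 48 lower and 0 to 1 higher, the 1 without RasV12 replicate 1.

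Rescaled, COX4 stood at 0.25, ATPsynC at 0.18 and ND-42 at 0.19 in RasV12 against CL8, and SdhC at 0.0784, ox at 0.0833 and UQCR-14 at 0.55 in L2 against CL8. After subtraction of medians SdhB stood at -0.39, UQCR-Q at -0.22 and COX7A at -0.66 in L2 against CL8, and COX7A was -0.00627 to 0.0314 over the fits without 1 array and -0.00823 without CL8 arrays 1 and 2. The causes were not tested. Of the values of named genes under these alternatives, 638 of RasV12 against CL8 kept direction and call, 15 lost and 4 gained a call and 3 turned. In L2 against CL8 182 kept both, 2 lost and 3 gained a call and 8 turned. In RasV12 against L2 all 78 kept both, but these values cover only ND-B14, SdhC, ox, UQCR-Q, COX4L and COX7AL. Those genes are among the 11 members lower in all 3 scalings, so this count does not describe the other members. The replicate numbers were not taken as a pairing, and the block left 52 members lower in RasV12 than in CL8.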

Other observations

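Subunits of the same complexes whose symbols fall outside the naming rule were also lower in RasV12 than in CL8. The Rieske iron-sulfur protein RFeSP of complex III had 8.98, 9.26 and 9.44 in RasV12, 9.83 in L2, and 10.71, 10.86, 10.93 and 11.15 in CL8, a difference between RasV12 and CL8 of -1.68 (-0.87 rescaled). The alpha subunit of the ATP synthase head, blw, differed by -0.97 (-0.34 rescaled), and its epsilon subunit, sun, by -1.76. The complex IV subunits cype and levy differed by -1.36 and -0.83 (-0.64 and -0.20 rescaled). All 5 were called by limma in RasV12 against CL8 both as deposited and rescaled, and in each of them the 3 RasV12 arrays lay below the L2 array and the L2 array did not exceed the lowest CL8 array. The paralog Cyt-c1L was within the controls in every line. With these 6 genes included, 58 genes were called lower and 3 higher in RasV12 than in CL8. They were added after the data were seen.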
